A study of Homo sapiens with 18 samples.

Results

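Stable gain regions are stretches of the human genome where peaks of a DNA-RNA hybrid pull-down were called after both 5 and 60 min of camptothecin (CPT) and not in untreated cells. Of the 1519 regions, 1433 also met a peak in at least 1 library digested with RNase H, so a peak here is a pull-down call that mostly had a counterpart after digestion. A share of 5.66% met none, beside 26.6% of the 28518 regions of all kinds described below. For 1289 (84.9%) the counterpart was in digested CPT libraries of replicate 2 only. The regions were selected on peak presence in the 6 lists of DNA-RNA immunoprecipitation sequencing (DRIP). Peaks of a treatment that met a peak of the other replicate by at least 1 bp were merged, the 3 treatments were merged into 28518 regions, and the rule kept regions with no peak in either untreated list and a peak in all 4 CPT lists. It gave 1519 regions, 5.33% of the total, which together span 4.06 Mb. HCT116 cells, an established line from a human colorectal carcinoma, were untreated (NT) or received CPT at 10 μM, lasting 5 or 60 min, and the 3 groups differed in nothing else that the labels give. The labels name 2 biological replicates of each group, and each was sequenced after pull-down, after pull-down of RNase H-treated DNA and as input. Of these 18 libraries, the peak lists of the 6 DRIP and the 6 RNase H libraries were analysed. Cells were detached, washed and pelleted after the treatment and before lysis, each replicate pooled parallel pull-downs, and the genomic DNA was cut with 5 restriction enzymes. All 7 epithelial marker genes examined (EPCAM, KRT8, KRT18, KRT19, CDH1, CLDN4 and CLDN7) were overlapped by a merged region, none of them by a member. Of 5 markers of other cell types, CD3E and ALB met no DRIP peak, PTPRC met 1, and GFAP and COL1A1 were overlapped by a region. RNA levels were not analysed here.

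An R loop forms when a transcript pairs with its template behind or near RNA polymerase II and leaves the other DNA strand unpaired. Topoisomerase I (Top1) relaxes the supercoils that transcription creates, and CPT traps it on the DNA as a cleavage complex. The S9.6 antibody binds DNA-RNA hybrids, and RNase H degrades their RNA strand before the pull-down in the digested libraries. In bulk DNA, a hybrid in more cells and more hybrid per cell cannot be told apart.

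The sequences under the strongest stable gains are shown first, because they give the DNA that the peaks rest on. They are the 120 bases around the summit of the highest CPT peak, read from GRCh37 in the direction of the gene, for 7 of the 20 strongest members, all with their midpoint in an intron of 1 protein-coding gene. The windows lie outside UTRs, and coding exons were not screened. Those of RPL14, ADIPOR2 and VAPB lie upstream of the start site used for the gene, although the midpoint of the member lies downstream of it. Capitals mark runs of 3 or more G on the strand in gene direction, called RNA-like here also where a window lies outside the transcript.
PLEKHG4B, chr5:96804-96923, plus strand: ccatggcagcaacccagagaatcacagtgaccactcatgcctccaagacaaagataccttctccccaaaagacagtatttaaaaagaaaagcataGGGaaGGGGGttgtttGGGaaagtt
LRPPRC, chr2:44218643-44218762, minus strand: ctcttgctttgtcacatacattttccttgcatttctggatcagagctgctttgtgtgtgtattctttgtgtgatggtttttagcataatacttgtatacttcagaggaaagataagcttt
TIMM17A, chr1:201926365-201926484, plus strand: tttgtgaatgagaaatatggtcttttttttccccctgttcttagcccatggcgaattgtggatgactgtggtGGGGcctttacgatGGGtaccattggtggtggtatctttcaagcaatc
RPL14, chr3:40498425-40498544, plus strand: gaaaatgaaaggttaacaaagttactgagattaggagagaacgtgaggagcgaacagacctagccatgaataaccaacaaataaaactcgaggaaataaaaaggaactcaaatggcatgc
SRRM1, chr1:24971857-24971976, plus strand: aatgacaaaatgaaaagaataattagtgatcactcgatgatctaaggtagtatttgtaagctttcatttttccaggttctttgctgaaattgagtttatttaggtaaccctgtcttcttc
ADIPOR2, chr12:1799003-1799122, plus strand: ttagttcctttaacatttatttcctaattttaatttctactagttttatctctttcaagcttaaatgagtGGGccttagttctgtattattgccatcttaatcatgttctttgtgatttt
VAPB, chr20:56963745-56963864, plus strand: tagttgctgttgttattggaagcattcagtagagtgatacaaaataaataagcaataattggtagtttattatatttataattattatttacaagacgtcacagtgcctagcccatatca

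G runs were sparse in these windows. LRPPRC, RPL14, SRRM1 and VAPB had none, and the window of PLEKHG4B had 3. Over the 1140 members with their midpoint in 1 protein-coding gene, 71.1% of the summit windows held GGG on the RNA-like strand (95% Wilson interval 68.4 to 73.7). CCC on it, which is GGG on the opposite strand, was held by 68.9% (66.2 to 71.6). Over the 19313 regions of all kinds that lay in 1 gene the shares were 80.3% for GGG and 77.5% for CCC. A window with GGG is a description of the letters and not of a binding site. The middle 32 bases of each of the 7 windows occurred once in the genome, while those of the intronic member not shown, at PACRGL, occurred 8959 times. Among all members, the 32 bases at the summit occurred more than once in 25.5% (23.3 to 27.7), beside 25.9% of all regions and 41.5% of transient gains, which had a peak at 5 min and none in NT or at 60 min. At PRDX1, also among the 20 strongest members, those 32 bases occurred 11083 times, at TNFSF9 8 times and at RPL26 4 times.

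Most stable gains lay just downstream of a start site. Of the 1519 members, 1020 had their midpoint between 0 and 10 kb downstream of the nearest start site of a protein-coding gene, 67.1% (64.7 to 69.5). The share was 39.3% over all regions, 55.7% among the 4160 late gains (a peak in both 60 min lists and in no NT or 5 min list), 53.3% among the 3719 regions with a peak in all 6 DRIP lists and 4.05% among the 1284 transient gains. Members and late gains occupied different parts of this interval. In the stretch from 2 to 5 kb lay 28.6% of members (26.4 to 31.0) and 17.2% of late gains (16.1 to 18.4), and in the stretch from 5 to 10 kb lay 18.2% of members (16.4 to 20.3) and 32.5% of late gains (31.1 to 34.0). The median distance of the downstream members was 4072 bp, with quartiles of 2041.5 and 7478.5 bp. It was 7699 bp for late gains and 4545 bp for regions present in all lists. Neither the start site nor gene annotation entered the selection, and the intervals cover counting error only, since regions of 1 library are not independent. The share was 45.5% without all libraries of replicate 1 and 46.2% without those of replicate 2.

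**Figure D1:**
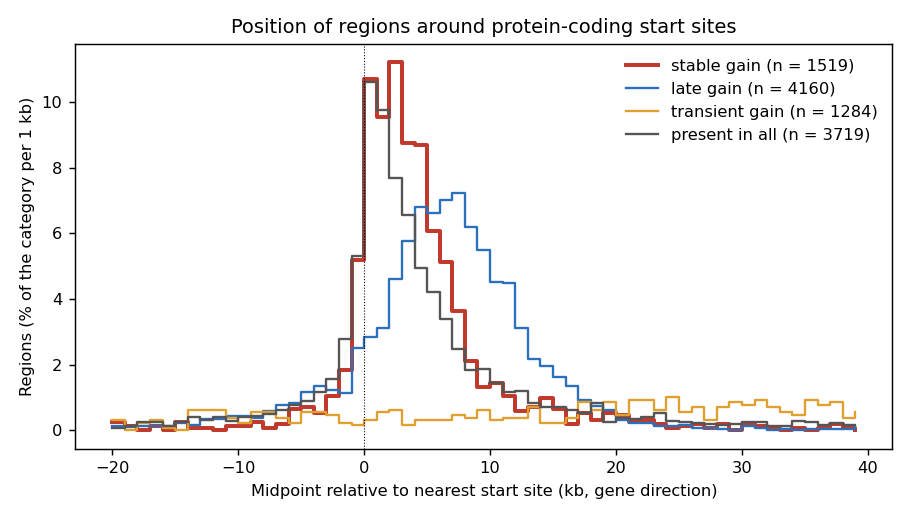
Share of regions per 1 kb of distance between the region midpoint and the nearest protein-coding start site (x axis, kb in the direction of the gene; y axis, percent of the category), for stable gains (red), late gains (blue), transient gains (yellow) and regions present in all 6 DRIP lists (grey). Stable gains lay mostly within 10 kb downstream, late gains had their highest shares farther downstream, and transient gains were spread without a maximum at the start site.

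A start site itself was inside 327 members, 21.5% (19.5 to 23.7), beside 14.6% of all regions, 3.0% of late gains and 47.5% of regions present in all lists. By midpoint, 437 members lay at a promoter, defined as the 5′UTR or 10 kb upstream of a protein-coding gene, which is 28.8% (26.5 to 31.1) beside 23.4% of all regions. The share was 31.5% among regions present in all lists, 23.6% among late gains and 5.22% among transient gains. Introns held 738 members, terminator positions 178, exons 46, and 120 lay outside genes. Of the 1140 members inside 1 gene, 724 (63.5%) lay in the 5′ 20% of its length. The median over the 1140 was 11.8% of the gene length from the 5′ end. The matching values for other kinds of region were not taken. The 1029 genes concerned had a median length of 48.5 kb, beside 27.2 kb for all 20163 protein-coding genes. The members outside genes were a different set in the lists: they were 1102 bp wide at the median, with a GC content of 40.5%, and their median percentiles were 83.7 and 64.3 at 5 min and 63.9 and 59.6 at 60 min (replicates 1 and 2), where those of intron members were 63.2 and 78.1 at 5 min and 73.1 and 88.8 at 60 min. They thus ranked above intron members in 1 list and below them in 3. A percentile here is the rank of the peak's fold enrichment within its own list, with 100 as the highest.

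Members of different distance also differed in composition and in RNase H peaks. The median GC content of all members was 44.1%, with quartiles of 40.4% and 47.7%, beside 49.0% for all regions, 53.3% for regions present in all lists and 40.3% for transient gains. The 308 members within 2 kb downstream of a start site had a median GC content of 48.1% and an observed-to-expected CpG ratio of 0.588, the ratio of CpG to what its C and G content would give. The 277 members from 5 to 10 kb downstream had 42.9% and 0.275. Within 2 kb the median percentile was 67.4 and 87.8 at 5 min (replicates 1 and 2) and 67.0 and 91.4 at 60 min. From 5 to 10 kb it was 58.9 and 72.6 at 5 min and 75.4 and 90.2 at 60 min. In replicate 1 the 60 min list thus ranked the farther members higher than the 5 min list did, and in replicate 2 both stretches ranked higher at 60 min. These percentiles come from lists of unlike length that the selection used and carry no test. Strand asymmetry was small: the median GC skew in the direction of the nearest gene, (G − C)/(G + C), was 0.027 for members and 0.023 for all regions, and it was above 0 in 65.1% of members and 60.5% of all regions.

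The course of peaks along the genes was examined at the 789 genes of at least 20 kb whose start site was nearest to a member within 20 kb downstream. At 4 kb downstream of the start, NT peaks covered 0.634% and 1.52% of these genes in replicates 1 and 2. After 5 min of CPT the peaks covered 13.7% and 26.9%, and after 60 min 22.7% and 63.1%. The NT values are low and the CPT values high by selection, since each gene was taken for its member. At 10 kb the 5 min lists covered 2.41% and 7.73% of the genes and the 60 min lists 10.3% and 32.8%. Both replicates thus had more genes covered at 60 than at 5 min at either distance, while the values of 5 min in replicate 2 and 60 min in replicate 1 lay close together at 4 kb. The RNase H lists of replicate 2, which took no part in the selection, covered 12.7% of the genes at 4 kb after 5 min and 42.0% after 60 min, and no gene in NT. In replicate 1 the RNase H lists covered at most 0.76% of these genes at any of the positions from 5 kb upstream to 20 kb downstream.

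**Figure D2:**
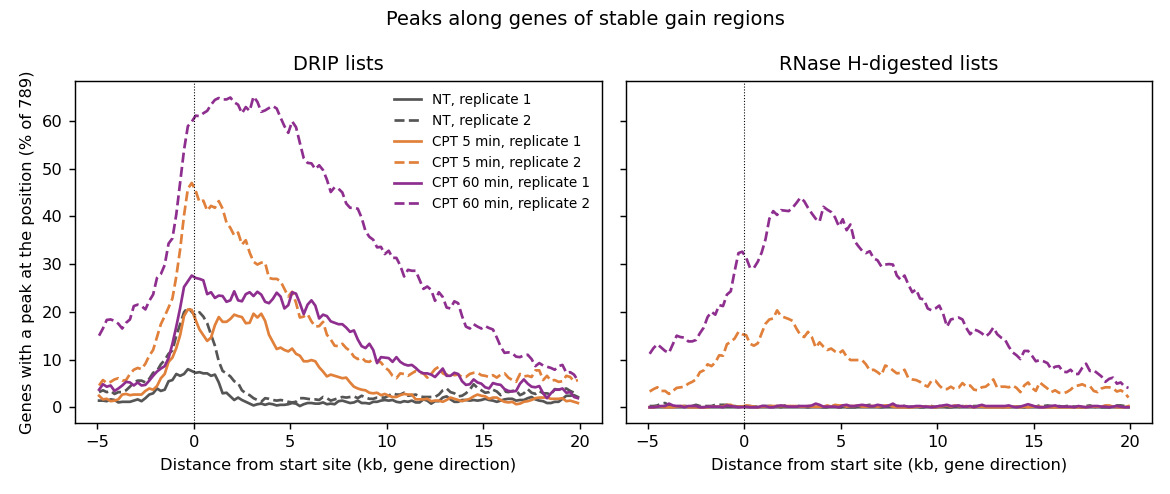
Percent of 789 genes with a peak at each 200 bp step (y axis) by distance from the start site in gene direction (x axis, kb), for DRIP lists (left) and RNase H-digested lists (right); colours are treatments, solid lines replicate 1 and dashed lines replicate 2. From 2 to 10 kb downstream, at the positions given in the text, the CPT lines of a replicate lie above its NT line. In the DRIP panel the choice of genes favours this order. At the start site the line of 5 min in replicate 1 (18.3%) lies below that of NT in replicate 2 (19.1%). At 1 kb downstream it lies above (17.2% against 12.9%). Only the replicate 2 CPT lists rise in the RNase H panel.

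In 416 of the 1260 genes that held a member's midpoint (33.0%), a late gain lay in the same gene. The matching share over all genes was not taken, and genes of members were longer at the median. The counts of shared genes therefore show no link between kinds of region. All late gains of the gene were downstream of all its members in 303 of the 416 genes (72.8%) and upstream in 83, with a median offset of 4844 bp downstream. Transient gains shared 113 genes with members and were downstream in 101. Regions present in all lists shared 201 genes with members, and there they were upstream in 117 and downstream in 75. Stable losses, with peaks in both NT lists and in no CPT list, were downstream of the members in 86 of 108 shared genes (79.6%), so a position downstream of members was not particular to late gains. Within the members the summit had no net shift from 5 to 60 min: the median was 0 bp in both replicates, with 46.1% and 48.1% of 1140 summits farther downstream and 49.8% and 45.0% farther upstream. The downstream edge of the peaks moved outward by 84.5 bp at the median in replicate 2 and by 0 bp in replicate 1, and the upstream edge by 0 bp in both.

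Of the 3868 regions gained at 5 min (13.6% of all regions), 1519 had a peak in both 60 min lists, 39.3% (37.7 to 40.8), which are the members. A further 20.2% had a peak in the 60 min list of replicate 2 only and 7.29% in that of replicate 1 only. Of the 4538 regions with peaks in both NT and both 5 min lists, 82.0% (80.8 to 83.0) were also in both 60 min lists. Read from the later time, members were 17.9% of the 8466 regions gained at 60 min (29.7% of all regions), and 28.0% of those were missed through the 5 min list of replicate 1 alone. The lists of replicate 2 were longer in every treatment: 52967, 56543 and 72879 peaks for NT, 5 and 60 min against 30314, 33852 and 41668 in replicate 1.

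Just outside the rule, 1152 regions failed through a peak in NT replicate 2 alone and 361 through a peak in NT replicate 1 alone. The NT peaks that removed them had median −log10 q values of 4.49 and 4.11. A single missing list removed 2367 regions at 5 min in replicate 1, 420 at 5 min in replicate 2, 783 at 60 min in replicate 1 and 282 at 60 min in replicate 2. Just inside the rule, the weakest list of the member at MCPH1 had a −log10 q of 1.301, followed by USP22 at 1.316 and by members near EPHA3 and at SLAIN2 and EXOSC3, each 1.318. The weakest list of a member had a median −log10 q of 3.11, and in 248 members (16.3%) it was under 2. By percentile, the lowest of the 4 lists was most often that of 5 min in replicate 1 (601 members) and least often that of 60 min in replicate 2 (134 members). The number of members depended on single lists: it was 2704 without NT replicate 2, 3864 without 5 min replicate 1 and 2322 without 60 min replicate 1.

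Peak height varied widely between members. The median fold enrichment over input, which ranks peaks within a list only, was 4.42 and 5.16 in the 5 min lists and 5.12 and 7.13 in the 60 min lists, with a range of 2.51 to 27.7 in 5 min replicate 1. Median percentiles were 65.7 and 78.2 at 5 min and 70.9 and 88.6 at 60 min. Only 44 members were in the top 10% of all 4 CPT lists, and 580 were in the top 10% of none. Ranks of the 1519 members were weakly related between lists, with Spearman's rank correlation from 0.174 (5 min replicate 1 and 60 min replicate 2) to 0.434 (5 min and 60 min of replicate 2). The points share regions and inputs of the same cells, and the correlation is given as a description.

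Peaks covered a median of 35.5% and 57.8% of a member at 5 min in replicates 1 and 2, and 42.9% and 100% at 60 min. The value of 60 min in replicate 1 lay between those of the 5 min lists, so that the groups overlapped. The mean difference between the times was 24.8 percentage points, 7.36 in replicate 1 and 42.2 in replicate 2. It is a description, since the selection used these lists and the regions are made of their peaks. Without the 60 min list of replicate 2 the difference was −5.01 percentage points, and without that of replicate 1 it was 49.1. That list covered 861 members (56.7%) completely with peaks, against 48 members in the 60 min list of replicate 1.

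The 20 members whose lowest percentile over the CPT lists was highest included 6 at cytosolic ribosomal protein genes. Over all 1519 members, 20 lay in or within 10 kb of such a gene. The first was at RPLP1, which encodes an acidic protein of the ribosomal stalk (chr15:69746118-69752215). Its highest peak stood at percentiles 99.5 and 99.9 at 5 min and 99.4 and 99.7 at 60 min, with fold enrichments of 12.1, 25.3, 13.3 and 21.8. The member spans 6098 bp, with its midpoint 4.01 kb downstream of the start site. The next region with peaks in both NT lists was 599 kb away, a distance that leaves out peaks of a single NT list. All 4 CPT lists thus placed it in their top 1%.

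RPL35A, RPL37A, RPL14, RPL26 and RPS27A, which encode further ribosomal proteins, were also among the 20. The member at RPL35A (chr3:197675312-197687980) was the widest of all at 12669 bp and also overlapped LMLN and IQCG, with percentiles of 99.6 and 99.3 at 5 min and 99.9 and 98.3 at 60 min. RPL37A (chr2:217362387-217368860) had 99.8, 99.7, 97.3 and 98.5 in the same order, and RPL14 (chr3:40498402-40505449) had 99.6, 97.9, 97.0 and 95.8. Regions with peaks in both NT lists were near in these last cases, 1.37 kb from the member at RPL37A and 0.473 kb from that at RPL14. RPL26 and RPS27A, the latter a fusion of ubiquitin with a ribosomal protein, had lowest percentiles of 93.6 and 93.4.

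SRSF3, an SR protein of splicing (chr6:36564515-36568948), had percentiles of 96.7 and 98.2 at 5 min and 96.1 and 99.1 at 60 min. SRRM1, a splicing coactivator (chr1:24971617-24973729), had 99.6, 97.0, 95.8 and 99.2 in that order, and its widest peak was 1494 bp in 3 of the lists. TAF1D, a subunit of the RNA polymerase I factor SL1 and a host of snoRNAs, had a lowest percentile of 93.3. LRPPRC, which stabilises mitochondrial mRNAs (chr2:44211374-44220671), had 97.6, 97.0, 97.0 and 96.6, and a single peak of 9298 bp covered it in the 60 min list of replicate 2. High values in each list are fixed by the choice of these members.

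The other strong members included TIMM17A, a subunit of the inner mitochondrial import channel, PRDX1, a peroxiredoxin, PSMD12, a subunit of the proteasome cap, VAPB, an endoplasmic reticulum tether, ADIPOR2, an adiponectin receptor, and TNFSF9, a TNF family ligand. Their lowest percentiles lay from 93.7 (TNFSF9) to 96.0 (TIMM17A). The member between C17orf75 and ZNF207 had percentiles of 96.1 and 99.0 at 5 min and 97.8 and 99.7 at 60 min. PACRGL stood at 96.7 to 98.5, and as its summit bases occurred 8959 times in the genome, its peak is uncertain in place. A pair of members stood apart from this set. One, in an intron of PLEKHG4B (chr5:96777-102430), had the highest fold enrichment of all members at 5 min in replicate 1 (27.7). It stood at percentile 97.7 at 60 min in replicate 2. The other lay outside genes, 62.0 kb from the start of RPE65 (chr1:68850347-68856901), at percentiles of 97.9 to 99.8, and met peaks in 5 of the 6 RNase H lists, NT replicate 2 included. Of the 20 members, 8 lay in introns, 5 at promoters, 5 at terminators, 1 in an exon and 1 outside genes.

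**Figure D3:**
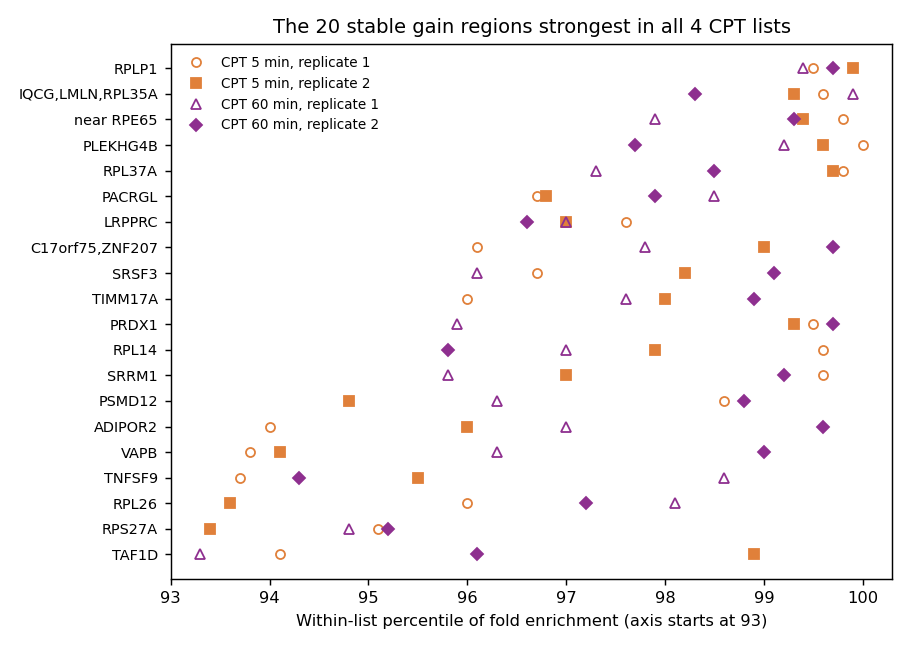
Within-list percentile of the highest peak (x axis, from 93 to 100) in the 4 CPT DRIP lists for the 20 stable gain regions whose lowest percentile was highest (y axis, by gene); circles and squares are the 5 min lists and triangles and diamonds the 60 min lists of replicates 1 and 2. The lowest points run from 99.4 at RPLP1 to 93.3 at TAF1D, and this order is set by the selection.

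After the member at RPL35A the widest were at ZNF79 (10232 bp), SNRPG (10004 bp), SIL1 and MATR3 (9961 bp) and LRPPRC (9298 bp). SNRPG encodes a core protein of the spliceosomal snRNPs and MATR3 a nuclear matrix RNA-binding protein. Width did not go with height at ZNF79, a zinc finger gene, whose percentiles were 22.1 and 55.6 at 5 min and 81.4 and 92.8 at 60 min. Its widest peak was 524 bp and 387 bp at 5 min, 374 bp at 60 min in replicate 1 and 10232 bp at 60 min in replicate 2, so that 1 list set the width of this member. Over all members the median width was 2404 bp, with quartiles of 1489 and 3546.5 bp, and merging over 4 lists widens a region.

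Most genes carried a single member. Members overlapped 1393 protein-coding genes, of which 1236 held 1 member and 157 held 2 or more. C6orf62, METAP2, a methionine aminopeptidase gene, and PINX1, which encodes a telomerase inhibitor, held 4 each, and 10 genes held 3, among them the chaperonin gene CCT6A, RAD23B of nucleotide excision repair and WDR82 of a histone methyltransferase complex. At METAP2 the members spanned from 95868726 to 95886910 on chromosome 12, all in the 5′ part of a gene of 42.3 kb. Of the 184 members outside protein-coding genes, 77 overlapped a lncRNA gene. The share of regions that were members ran from 1.52% on chromosome 19 (37 of 2434) to 8.27% on chromosome 13 (31 of 375).

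Members were counted at 14 gene lists, as genes with a member in the gene or within 10 kb, beside 9.17% of all protein-coding genes (1848 of 20163). The shares depend on gene length and on how genes cluster, and they carry Wilson intervals and no test. Other kinds of region were also frequent at these lists: late gains were near 13 of 32 chaperone genes (40.6%) and 9 of 14 SR protein genes (64.3%), beside 21.3% of all genes, and regions present in all 6 lists were near 20 of 26 hnRNP genes (76.9%) and 23 of 38 translation factor genes (60.5%), beside 5050 of the 20163 genes. Chaperone genes had the highest share, 13 of 32 (40.6%, 25.5 to 57.7). DNAJA1, a co-chaperone of the HSP70 system, had percentiles of 91.2 and 94.5 at 5 min and 99.0 and 98.7 at 60 min, and CCT4, a subunit of the cytosolic chaperonin, 97.1, 99.1, 87.7 and 95.3. CCT6A held 3 members overlapping the gene, and the member at DNAJB6 met peaks in 4 RNase H lists. Translation factor genes followed with 14 of 38 (36.8%, 23.4 to 52.7), among them EIF3E and EIF3L, which encode subunits of the initiation factor eIF3, EIF4G2 and PABPC1, the cytoplasmic poly(A)-binding protein. EIF3E had percentiles of 92.0, 99.3, 90.1 and 96.7 in the order 5 min replicates 1 and 2 and 60 min replicates 1 and 2. EIF4G2 had 85.4, 75.8, 78.3 and 87.9, and its member met no RNase H peak.

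The hnRNP list, packaging factors of nascent RNA, had 8 of 26 genes with a member (30.8%, 16.5 to 50). HNRNPC stood at 86.9 and 99.4 at 5 min and 93.1 and 98.8 at 60 min, and HNRNPU and HNRNPDL had lowest percentiles of 74.0 and 70.3, while HNRNPH2 was near a member without overlapping it. The snoRNA hosts had 6 of 22 (27.3%, 13.2 to 48.2), with lowest percentiles of 93.3 at SNHG8, 93.3 at TAF1D, 86.0 at GAS5 and 84.3 at SNHG5. SR protein genes had 3 of 14 (21.4%, 7.57 to 47.6, an interval that holds the 9.17% of all genes), SRSF3, TRA2A and SRSF5, and at SRSF5 the 60 min list of replicate 1 ranked the member at percentile 6.0 where the 5 min list of replicate 2 ranked it at 97.9. The cytosolic ribosomal protein genes, although frequent among the strongest members, had 15 of 79 (19.0%, 11.9 to 29.0). In this list 62 of 79 genes (78.5%) were within 10 kb of a region present in all 6 lists, beside 5050 of all 20163 protein-coding genes.

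The count at histone genes rested on few members. Of 49 replication-dependent histone genes found, 15 had a member within 10 kb (30.6%, 19.5 to 44.5), but they shared 4 members, and 7 genes were overlapped. A single member on chromosome 6 (27100401 to 27103259) served H2AC11, H2BC11 and H4C9, at percentiles of 88.4 and 99.8 at 5 min and 82.5 and 97.9 at 60 min, and another served H1-1. No histone gene was within 10 kb of a late or a transient gain. A further 4 listed histone symbols were not found in the annotation.

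Immediate early genes had 5 of 46 (10.9%, 4.73 to 23), namely DUSP1, CCN2, KLF6, TRIB1 and ID2, while 30 of the 46 were near a region present in all lists. DUSP1, a MAP kinase phosphatase, stood at 76.3 and 78.0 at 5 min and 86.2 and 98.4 at 60 min. The p53 targets had 5 of 33 (15.2%, 6.65 to 30.9): DDB2, AEN, FBXO22, RRM2B and TIGAR. RRM2B, a subunit of ribonucleotide reductase, was weak at 5 min, at 14.5 and 20.2, and stood at 50.3 and 83.5 at 60 min. DNA damage response genes had 10 of 57 (17.5%, 9.82 to 29.4), with XRCC4, PRKDC and XRCC6 of end joining and APTX, which removes AMP from broken ends. APTX shares its member with DNAJA1, and the members near XRCC4 and XRCC6 lay at neighbouring genes.

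The target of CPT was itself in the list: TOP1 held a member in an intron, 0.834 kb downstream of its start (chr20:39656050-39660542). It stood at percentiles 67.2 and 96.7 at 5 min and 9.5 and 96.9 at 60 min, so that replicate 1 ranked it lower than replicate 2 at both times. TOP3A and TOP3B, type IA topoisomerases, had lowest percentiles of 34.3 and 58.9, and the list had 3 of 10 genes (30.0%, 10.8 to 60.3). The list of RNase H and R-loop helicase genes had 3 of 24 (12.5%, 4.34 to 31.0), namely DDX5, DDX21 and THOC2. The last of these encodes neither a helicase nor an RNase H. The RNA helicase gene DDX5 stood at 89.7, 99.4, 76.9 and 99.1, and THOC2, of the mRNA export complex THO, had a lowest percentile of 12.9. The 2 nuclear lncRNAs had none. Of 414 olfactory receptor genes, 3 had a member within 10 kb (0.725%, 0.247 to 2.11) and none was overlapped by it.

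**Figure D4:**
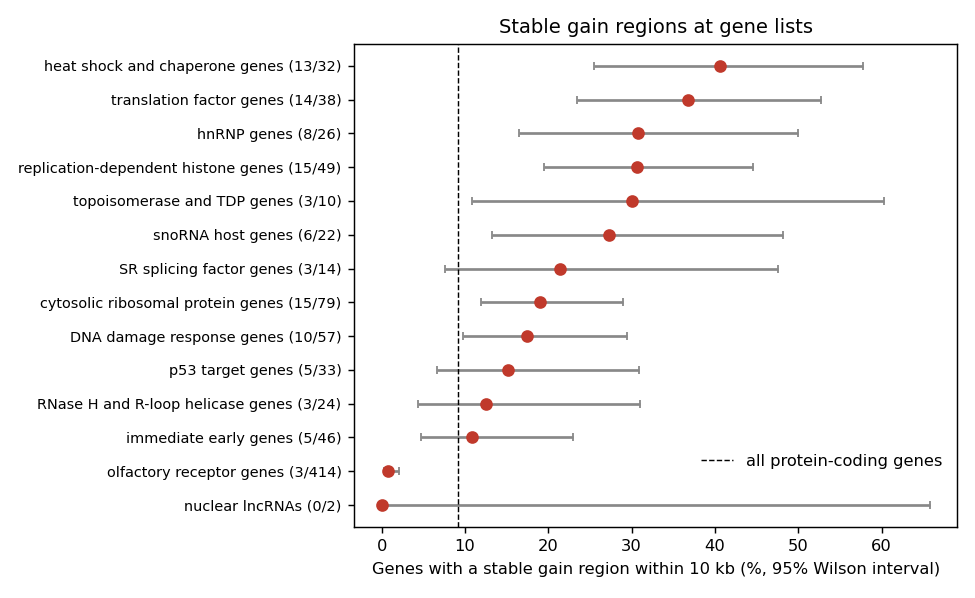
Percent of the genes of each list with a stable gain region in the gene or within 10 kb (points, with 95% Wilson intervals; genes with a region and genes found in brackets), beside the share of all 20163 protein-coding genes (dashed line, 9.17%). The intervals of chaperone (25.5 to 57.7%), translation factor (23.4 to 52.7%) and hnRNP genes, among others, lie wholly to the right of the line, and that of olfactory receptor genes to the left.

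RNase H-digested libraries, which did not enter the selection, met most members in replicate 2 and few in replicate 1. In NT the lists met 1 member (0.0658%) in replicate 1 and 66 (4.35%) in replicate 2, beside 0.386% and 13.2% of all regions. At 5 min they met 3.42% and 66.2% of members, beside 2.98% and 43.3% of all regions. At 60 min they met 3.23% and 91.3% of members, beside 2.78% and 65.3% of all regions. The lists themselves held 473, 3439 and 5392 peaks in replicate 1 and 15790, 50353 and 67188 in replicate 2, and the part of list length in these shares was not tested. Of the members, 86 (5.66%) met no RNase H list, beside 26.6% of all regions and 2.07% of regions present in all lists. Another 1289 members (84.9%) met CPT lists of replicate 2 only, and 966 (63.6%) met both CPT lists of replicate 2. All of the 20 strongest members met the RNase H list of 60 min in replicate 2, and 17 met that of 5 min in replicate 2.

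A wider region can meet a peak more often, so the bases covered were compared with those of late gains. RNase H peaks covered 0.00488% and 0.649% of member bases in NT, 0.906% and 26.2% at 5 min, and 0.529% and 62.9% at 60 min (replicates 1 and 2). In late gains they covered 0.00578% and 0.625%, 0.168% and 6.10%, and 0.251% and 44.5%. The difference was positive in 5 of 6 libraries and averaged 6.58 percentage points, with p = 0.0625 in a two-sided exact sign-flip permutation test over the 6 libraries, where the smallest p is 0.0312. It therefore did not pass a threshold of 0.05. The CPT libraries of replicate 2 carried the mean, with differences of 20.1 percentage points at 5 min and 18.4 at 60 min. The p was 0.0312 when the members were chosen without NT replicate 1, 5 min replicate 2, 60 min replicate 1 or all of replicate 1, with differences of 6.60, 4.88, 8.60 and 5.44 percentage points. Against regions present in all 6 DRIP lists, members were covered less in each of the 6 libraries, with a mean difference of −3.91 percentage points (p = 0.0312 in the same exact test). Against transient gains the mean difference was 10.97 percentage points, with an exact sign-flip p = 0.281. The digested DNA came from the same samples as the DRIP lists that define the kinds of region. Late gains had to lack a 5 min peak, and regions present in all lists had to hold NT peaks. These tests therefore cannot separate a difference from the selection, and no conclusion is drawn from their p values.

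**Figure D5:**
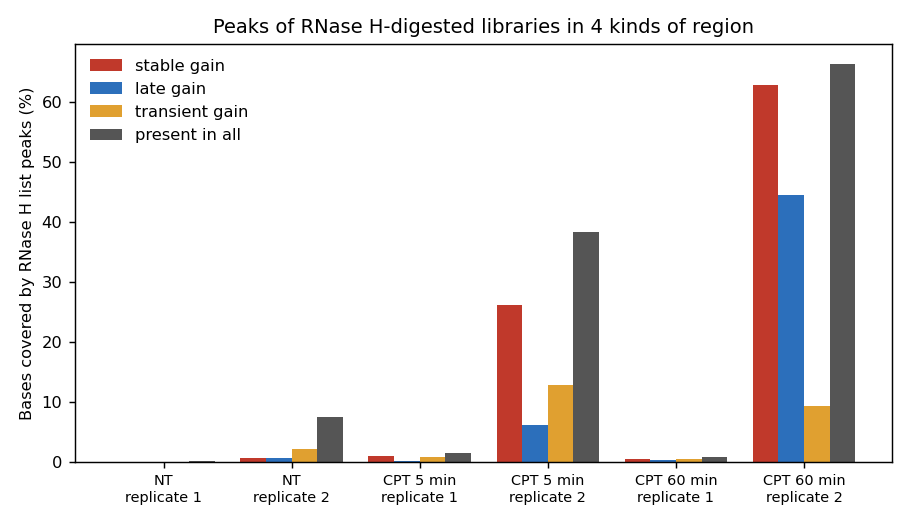
Percent of region bases covered by peaks of each RNase H-digested library (y axis; x axis, the 6 libraries) for stable gains, late gains, transient gains and regions present in all 6 DRIP lists; each bar is 1 library, without error bars. Bars of replicate 1 stay below 2%, and in both CPT lists of replicate 2 stable gains lie between late gains and regions present in all lists.

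The 86 members without any RNase H peak were unlike the rest. They were 1001 bp wide at the median, against 2512 bp, and 26.7% of them lay 0 to 10 kb downstream of a start site, against 69.6% of the 1433 others. Width moved with both: among members under 1 kb, 21.2% met no RNase H list and 29.8% lay in that interval, while among those of 4 kb and over none lacked an RNase H peak and 83.1% lay in it. Among members under 1 kb, the interval held 5 of 42 without an RNase H peak (11.9%) and 54 of 156 with one (34.6%). Among those from 1 to 2 kb it held 15 of 33 (45.5%) and 216 of 365 (59.2%), and from 2 to 4 kb 3 of 11 (27.3%) and 515 of 657 (78.4%). Over all widths, the lowest percentile over the CPT lists was 22.8 at the median without an RNase H peak and 40.8 with one. By distance, members without an RNase H peak made up 18.9% of those over 20 kb downstream and 0.722% of those from 5 to 10 kb.

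Many borders of the members lay at restriction cuts. The enzymes were Hind III (AAGCTT), Eco RI (GAATTC), Xba I (TCTAGA), Bsr GI (TGTACA) and Ssp I (AATATT). The windows below were chosen after the values were seen, from strong members whose peaks began or ended at the same base in all 4 CPT lists. Capitals mark the recognition site at the shared edge, on GRCh37.
PLEKHG4B, first base, chr5:96757-96796, plus strand: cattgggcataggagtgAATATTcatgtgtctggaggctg
PLEKHG4B, last base, chr5:102409-102448, plus strand: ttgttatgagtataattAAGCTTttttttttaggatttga
LRPPRC, last base, chr2:44220650-44220689, plus strand: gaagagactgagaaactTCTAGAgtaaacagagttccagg
VAPB, first base, chr20:56963667-56963706, plus strand: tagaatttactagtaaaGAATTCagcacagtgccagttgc

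Peaks of all 4 CPT lists began at the same base in 200 members, and each of these bases was a cut position of the 5 enzymes. They ended at the same base in 221 members, of which 220 were cut positions. Either edge was shared by all 4 CPT lists in 408 members (26.9%), and 9 of the 20 strongest members had such an edge at a cut. Shared edges were not counted for other kinds of region. Over members, 55.7% of region edges lay at a cut and both edges did so in 28.6%, beside 40.7% and 12.7% over all regions. Regions present in all lists came nearer to members, with 48.2% and 23.98%. Late gains had 37.9% and 9.04%, and transient gains 38.3% and 2.41%. The part of region width in these shares was not tested. In the 60 min list of replicate 2, 51.4% of the edges of peaks in members lay at a cut, against 32.4% over the whole list, and in the 5 min list of replicate 1 the values were 38.2% and 33.0%. Member bases held 0.589 sites per kb, beside 0.447 for all regions.

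The distance to untreated peaks was taken as well. Within 5 kb of a region with peaks in both NT lists lay 296 members, 19.5% (17.6 to 21.6), beside 21.0% of late gains, 7.01% of transient gains and 55.7% of all regions, which include the NT regions themselves. The rule bars an NT peak inside a member and not beside it. The share depended on the NT lists: without NT replicate 1 it was 40.02% and without NT replicate 2 it was 30.8%, where each NT region then rests on a single list.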

How the data were processed

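DNA-RNA hybrids were mapped by DRIP-seq in HCT116 cells, and the peak lists of 6 DRIP and 6 RNase H-digested libraries were analysed. Per the methods, the authors used Cutadapt for adapters, BWA for alignment to human (hg19) and spike-in yeast genomes, a blacklist filter, SAMtools and Picard for duplicates, and MACS2 for peaks, library by library with the matching input. Their versions are not given in the sources used here, and no list pools replicates. The ratio column is the deposited fold enrichment at the summit. Further deposited columns, −log10 p and −log10 q, belong to the summit within its list. The deposited score, a rescaled −log10 q, was not used, and the deposited summit offset gave the summit position. The calling threshold is not given in the sources used here; the lowest −log10 q was 1.3011 to 1.31071 over the 12 lists.

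The lists hold no read counts, so depth behind a peak is unknown, spike-in scaling is not in them, and a missing peak is a call below threshold. Longer lists give more peaks per region. Fold enrichment was ranked within a list, and its values were not compared between lists. Percentiles of different lists are set side by side, although the lists differ in length. What length does to a percentile was not tested. Regions were built from peaks sharing at least 1 bp, as described with the results, and placed by midpoint on GENCODE release 44 genes of GRCh37, with promoter and terminator windows of 10 kb. Base composition, restriction sites and sequences were read from GRCh37. The summit window at PACRGL is not reported here. For shares, 95% Wilson intervals are given; they hold counting error alone. The RNase H comparison was an exact sign-flip permutation over libraries; the coverage of members by CPT peaks, which the selection used, is a description. The members and the gene lists were chosen with earlier results of these data known. The text names the 20 members with the highest lowest percentile over the CPT lists, the 5 widest, the genes with most members, and up to 4 genes per list by that percentile. Alternatives were peaks with −log10 q from 3 upward, all lists shortened to the same length, removal of regions with an RNase H peak, peaks up to 1000 bp apart merged, an overlap of 50%, chromosomes 1 to 22 and X, the replicate block, and each library left out. The region steps were tested on simulated lists. Python 3.11.15, NumPy 2.4.6, pandas 2.3.3, SciPy 1.17.1, pysam 0.24.0 and Matplotlib 3.10.9 were used.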

Additional observations from a re-analysis of the deposited data

How the results depend on the processing

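With lists of 2 replicates, the number of members moved with each list. It stayed within 1.5 times of 1519 with peaks of −log10 q from 3 upward (1050), all lists shortened to the same length (1210), peaks up to 1000 bp apart merged (1161), a 50% overlap (1500) and chromosomes 1 to 22 and X (1519). It fell to 86 with every region that met an RNase H peak removed. Those 86 had 18.6% at promoters, a median width of 1001 bp, a median GC content of 41.8%, 3.49% within 5 kb of NT regions and 26.7% within 10 kb downstream of a start site, and their coverage difference between 60 and 5 min was reversed, at −2.1 percentage points. Leaving out 1 library, or 1 replicate number in all treatments, gave 1884 to 11004 members, a promoter share of 25.3 to 31.7%, a median width of 865 to 2725 bp, a GC content of 43.5 to 46.0%, an NT-neighbour share of 17.7 to 40.9%, a downstream share of 45.5 to 64.8%, a coverage difference of −5.01 to 49.1 percentage points and an RNase H difference from late gains of 3.88 to 10.6 percentage points. The count was 2704 without NT replicate 2, 3864 without 5 min replicate 1, 2322 without 60 min replicate 1, 11004 without replicate 1 and 5323 without replicate 2. The width was 1251 bp without 60 min replicate 2, 981 bp without replicate 1 and 865 bp without replicate 2. The NT-neighbour share was 40.02% and 30.8% without NT replicates 1 and 2, and 40.9% and 34.2% without all of replicates 1 and 2. The coverage difference was −5.01 without 60 min replicate 2, −1.75 without replicate 2 and 49.1 without 60 min replicate 1. The RNase H difference was 4.33 without 5 min replicate 1, 10.6 without the DRIP list of 60 min replicate 2, and 3.88 and 4.22 without the RNase H lists of replicate 2 at 5 and 60 min, and its exact p moved from 0.0625 to 0.0312 without DRIP NT replicate 1, 5 min replicate 2, 60 min replicate 1 or replicate 1. The −log10 q minimum of 3 gave a median width of 2840 bp, a GC content of 44.6%, an NT-neighbour share of 16.1% and a downstream share of 70.5%. Lists shortened to the same length gave 31.2% at promoters, 2908 bp, a GC content of 44.9% and a downstream share of 74.1%. Merged peaks gave 23.9% at promoters, 3983 bp, a GC content of 43.4% and an NT-neighbour share of 12.7%. Any overlap with the promoter window in place of the midpoint gave 47.9%, and NT regions were within 1 kb of 7.70% and within 10 kb of 24.6% of members. Against regions present in all lists in place of late gains the RNase H difference was reversed, at −3.91 percentage points. The replicate block left the coverage difference at 24.8 percentage points. The labels do not say that a replicate number marks a shared culture or day, and deviations of same-numbered libraries over the 1519 members correlated at 0.14 for percentiles and 0.29 for coverage. The downstream share and its alternatives were added after seeing the data. The causes of these shifts were not tested.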
